A study of Arabidopsis thaliana with 30 samples.

Results

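Roots of starved AtNIGT1.2 overexpressor seedlings of Arabidopsis thaliana were compared with roots of nitrogen-sufficient wild-type seedlings, to sort transcripts into those that the starved overexpressor held at the nitrogen-sufficient level and those that still responded to starvation. The comparison rests on 6 of the 30 arrays of the study, chosen by genotype, nitrogen supply and tissue: 3 of overexpressor roots without nitrogen and 3 of wild-type (Col-0) roots with 5 mM ammonium nitrate. Seedlings of both genotypes were pre-grown on half-strength Murashige-Skoog agar with sucrose, moved at 7 days to plates of another medium (MGRL), and harvested at 10 days after 3 days with or without nitrogen. Starved wild-type roots, handled in the same way without a nitrogen source, gave 3 further arrays that define the starvation response. A line with an inducible AtNIGT1.2-VP fusion, transferred on day 9 and kept for 24 h on 5 mM ammonium nitrate, gave 3 root arrays with estradiol and 3 without. The labels used here spell out neither "VP" nor the promoter of the overexpressor, and do not say how many independent lines or how many seedlings a sample holds. There was no overexpressor group with nitrogen, so genotype and nitrogen supply both differ between overexpressor and sufficient wild type, and their parts in that difference cannot be told apart from these 2 groups alone.

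NIGT1 proteins, also called HHO or HRS1 homologues, are GARP-type transcription factors that are induced by nitrate in wild-type roots and act mainly as repressors. Their known targets in Arabidopsis include the genes of high-affinity nitrate transporters, which roots raise when nitrogen runs short, and the NIGT1 genes themselves. Nitrogen starvation in roots is known to raise high-affinity uptake of nitrate, ammonium and amino acids, and to lower genes that nitrate itself induces.

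Values are levels on the RMA log2 scale, in which a difference of 1 is a change of 2-fold, and each ± after a difference is a standard error of limma's fit. Root values ran from 3.50 to 13.85, the medians of the 15 root arrays lay between 6.92 and 7.08, and arrays of a group correlated with r of 0.996 to 0.9988. The summed level of 10 root tissue markers, written as log2, was 13.65 to 13.66 in starved overexpressor, 13.62 to 13.71 in starved wild type and 13.91 to 13.95 in sufficient wild type. PYK10, a root beta-glucosidase, makes up most of that sum (13.04, 13.03 and 13.00 in starved overexpressor, 13.08, 13.02 and 13.15 in starved wild type and 13.60, 13.52 and 13.57 in sufficient wild type). Of the 10 markers, 5 were higher and 1, PYK10, was lower in starved overexpressor than in sufficient wild type (41.0 and 23.9% of all probe sets). Low values have no detection calls in these files, so a level near 5 cannot be told from an absent transcript. This limits statements on genes that sit there in any group, among them the markers PLT1 and PLT2, with means of 5.36 and 5.65 over the 15 root arrays. The titles call the replicates biological, and p-values reflect variation among such samples only.

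The AtNIGT1.2 transcript (NIGT1.2, AT1G68670) stood at 13.75, 13.65 and 13.60 in starved overexpressor, 7.74, 7.78 and 7.89 in starved wild type and 9.04, 8.83 and 8.93 in sufficient wild type. The 3 overexpressor arrays lay far above the other 6, as labelled. The highest values on those 3 arrays were 13.75, 13.68 and 13.68, so the transcript was at the top of the scale and the difference of 4.73 ± 0.06 from sufficient wild type may be compressed. Starvation of wild type lowered NIGT1.2 by 1.13 (limma, adjusted p = 6.30e-13).

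The other 3 NIGT1 genes were low in the overexpressor. NIGT1.1 was 5.97, 5.89 and 5.80 in starved overexpressor, 7.65, 7.89 and 7.90 in starved wild type and 9.89, 9.79 and 9.88 in sufficient wild type. NIGT1.4 was 4.95, 5.25 and 5.39 in starved overexpressor, 8.05, 8.26 and 8.39 in starved wild type and 10.20, 10.45 and 10.34 in sufficient wild type. In both genes the 3 groups did not overlap, starvation lowered the transcript, and the overexpressor lay further down still, by -1.93 ± 0.07 for NIGT1.1 and -3.03 ± 0.10 for NIGT1.4 against starved wild type (limma, adjusted p = 1.19e-14 and 8.85e-16). NIGT1.3 took another course: it was 5.16, 5.30 and 5.28 in starved overexpressor, 8.29, 8.29 and 8.15 in starved wild type and 7.93, 7.80 and 7.83 in sufficient wild type, so starvation raised it slightly (0.39 ± 0.08) while the overexpressor stood -2.61 from the sufficient level. Over the 7 tested loci of the NIGT1 family list, 1 was higher and 4 lower in starved overexpressor than in sufficient wild type (41.0 and 23.9% of all probe sets). Starved wild type had 1 higher and 4 lower (33.1 and 21.8% of all probe sets). The 1 higher in the overexpressor was NIGT1.2 itself.

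Of 15922 probe sets tested, 6526 were higher in starved overexpressor than in sufficient wild type (41.0% of those tested) and 3804 were lower (23.9%) at an adjusted p under 0.05. By at least 1 on the log2 scale, 550 were higher (3.45%) and 761 lower (4.78%). Higher calls made up 63.2% of all calls on the deposited scale, 57.2% after a further quantile normalization and 53.0% with each array centred on its median, so the split between the directions depends on the scaling. In wild type, starvation raised 5265 probe sets (33.1%) and lowered 3466 (21.8%). Here higher calls made up 60.3% on the deposited scale, 52.6% after the further normalization and 44.9% with arrays centred, so which direction had more calls turned with the scaling. By at least 1, it raised 408 (2.56%) and lowered 433 (2.72%), and these 841 (5.28%) are called starvation-responsive here. They stand for 384 induced and 407 repressed genes.

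The starvation-responsive probe sets were sorted by where the starved overexpressor lay relative to sufficient wild type. A probe set was counted at the sufficient level when the 95% interval of the difference lay wholly between -0.5 and 0.5, past it when the difference was significant and opposite to starvation, still responding when it was significant, in the direction of starvation and at least 1, and part way when it was significant and under 1. Of the 408 induced probe sets, 33 were at the sufficient level (8.1%), 17 were past it (4.2%), 241 still responded (59.1%), 111 were part way (27.2%) and 6 were undecided (1.5%). Of the 433 repressed probe sets, 2 were at the level (0.5%), 2 past it, 383 still responded (88.5%), 45 were part way (10.4%) and 1 was undecided. Those at or past the sufficient level numbered 50 of 408 induced and 4 of 433 repressed ones. Both differences share the sufficient wild-type arrays, so these counts describe the 9 arrays and are not a test.

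The size of the response differed between the directions. The overexpressor showed a median of 81.7% of the wild-type starvation change among induced probe sets (quartiles 45.9 and 111.5%), and 118.7% among repressed ones (quartiles 98.3 and 150.1%). The direct test of overexpressor against starved wild type, which calls 21.4% of all probe sets higher and 16.7% lower (0.427 and 2.2% by at least 1), called 204 induced probe sets lower, 88 higher and left 116 uncalled. Among repressed ones it called 231 lower and 69 higher and left 133 uncalled. In both directions more responsive probe sets were therefore lower in the overexpressor than in starved wild type. For induced probe sets that means a smaller change and for repressed ones a larger one. The direct test reuses the starved wild-type arrays by which these probe sets were chosen. That choice by itself favours lower calls among induced and higher calls among repressed ones. The split among induced probe sets, and their median share, were therefore partly set by the choice.

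**Figure D1:**
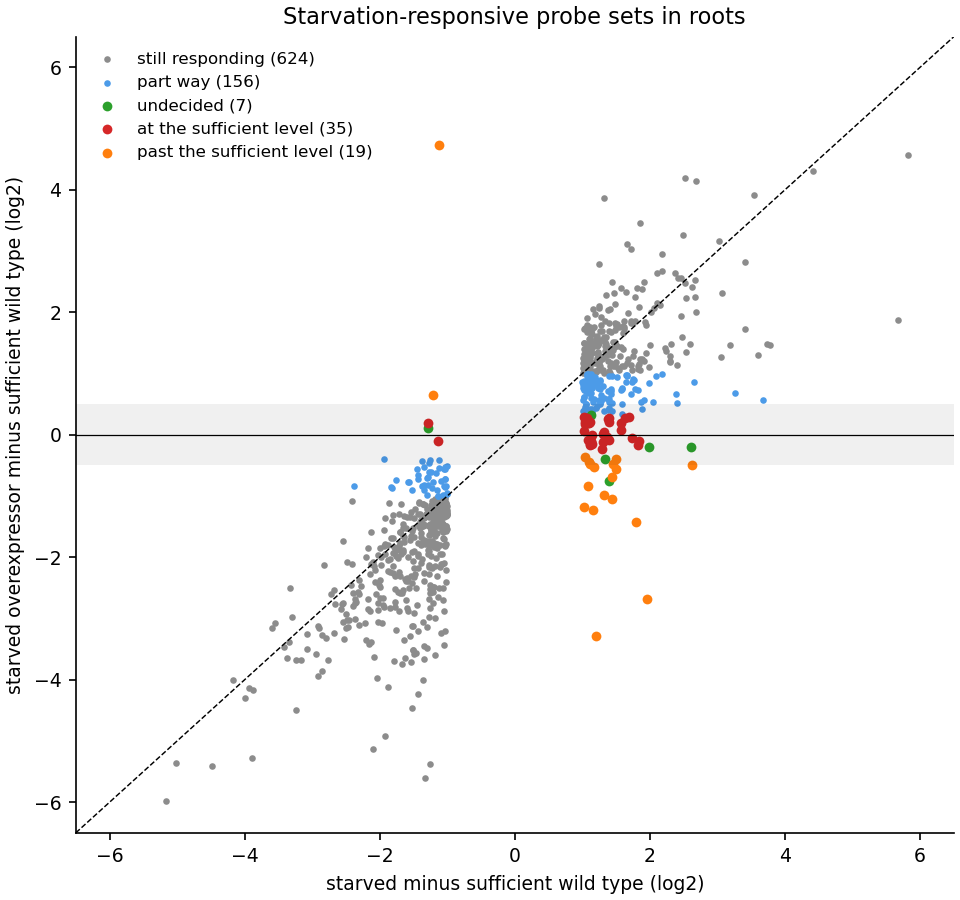
Each point is a starvation-responsive probe set, with the change of starved wild type on the x axis and that of starved overexpressor on the y axis, both in log2 against sufficient wild type; the grey band marks -0.5 to 0.5 and the dashed line equal changes. Of these, 624 still respond, 35 lie at the sufficient level, and 19 lie past it, one of them NIGT1.2 at 4.73.

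Nitrate uptake genes split into those that kept their starvation response and those that lost most or all of it. NRT2.1 (AT1G08090), the main high-affinity nitrate transporter of roots, was 12.50, 12.46 and 12.35 in starved overexpressor, 13.01, 12.97 and 13.11 in starved wild type and 9.37, 9.47 and 10.01 in sufficient wild type. The overexpressor thus stayed 2.82 ± 0.13 above the sufficient level (limma, adjusted p = 6.15e-14) and differed by -0.59 from starved wild type. NRT2.4 (AT5G60770), a high-affinity transporter expressed mainly under nitrogen starvation, was 7.58, 7.56 and 7.60 in starved overexpressor, 11.43, 11.21 and 11.51 in starved wild type and 5.39, 6.05 and 5.69 in sufficient wild type. Its level remained above the sufficient one by 1.87 ± 0.12 (adjusted p = 1.13e-11), but 33% of the wild-type change was left and the difference from starved wild type was -3.80 ± 0.12. NRT2.5 (AT1G12940), another starvation-induced member, was 4.57, 4.77 and 4.85 in starved overexpressor, 6.2, 6.59 and 6.76 in starved wild type and 4.66, 4.77 and 4.92 in sufficient wild type. The overexpressor and sufficient groups overlapped, with a difference of -0.05 ± 0.12 and a 95% interval of -0.29 to 0.19, and both lay near 5, where level and absence cannot be told apart.

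NRT2.2 was 5.56, 5.70 and 5.66 in starved overexpressor, 8.43, 8.07 and 8.16 in starved wild type and 4.99, 5.05 and 4.83 in sufficient wild type, a part-way position at 20.9% of the starvation change. NRT2.2 and NRT2.1 are neighbouring genes of closely similar sequence, so hybridization of one transcript to the other's probes is possible and their separate values are uncertain. NRT3.1, the partner protein that NRT2 transporters need at the plasma membrane, was 11.71, 11.63 and 11.66 in starved overexpressor, 12.52, 12.34 and 12.43 in starved wild type and 11.38, 11.45 and 11.54 in sufficient wild type. It stood 0.21 ± 0.07 above the sufficient level (adjusted p = 0.00847), which is 0.14 with an adjusted p of 0.0767 when arrays were centred on their medians. NPF6.3 (AT1G12110), the dual-affinity nitrate transporter and sensor also called NRT1.1, was 8.56, 8.40 and 8.32 in starved overexpressor, 10.12, 10.10 and 10.18 in starved wild type and 11.40, 11.52 and 11.55 in sufficient wild type. Starvation lowered NPF6.3 and the overexpressor lay lower again, -3.07 ± 0.06 from the sufficient level (adjusted p = 2.82e-20).

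Transporters that move nitrate into and out of the xylem went in opposite directions. NPF7.3, which loads nitrate into the xylem, was 10.02, 10.08 and 10.04 in starved overexpressor, 11.61, 11.68 and 11.78 in starved wild type and 12.66, 12.77 and 12.80 in sufficient wild type. NPF7.2, which retrieves nitrate from the xylem, was 9.43, 9.24 and 9.39 in starved overexpressor, 8.84, 8.47 and 8.44 in starved wild type and 6.12, 5.91 and 6.22 in sufficient wild type. Both kept their starvation direction and went beyond starved wild type, by -1.64 ± 0.05 for NPF7.3 and 0.77 ± 0.14 for NPF7.2 (adjusted p = 6.22e-16 and 1.37e-04). Over the nitrate transport list, 11 of 21 tested members were higher and 8 lower in starved overexpressor than in sufficient wild type (41.0 and 23.9% of all probe sets). Starved wild type had 11 higher and 7 lower (33.1 and 21.8% of all probe sets). The median difference was 0.21 for the overexpressor and 0.39 for starved wild type, against 0.09 and 0.06 over all probe sets.

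**Figure D2:**
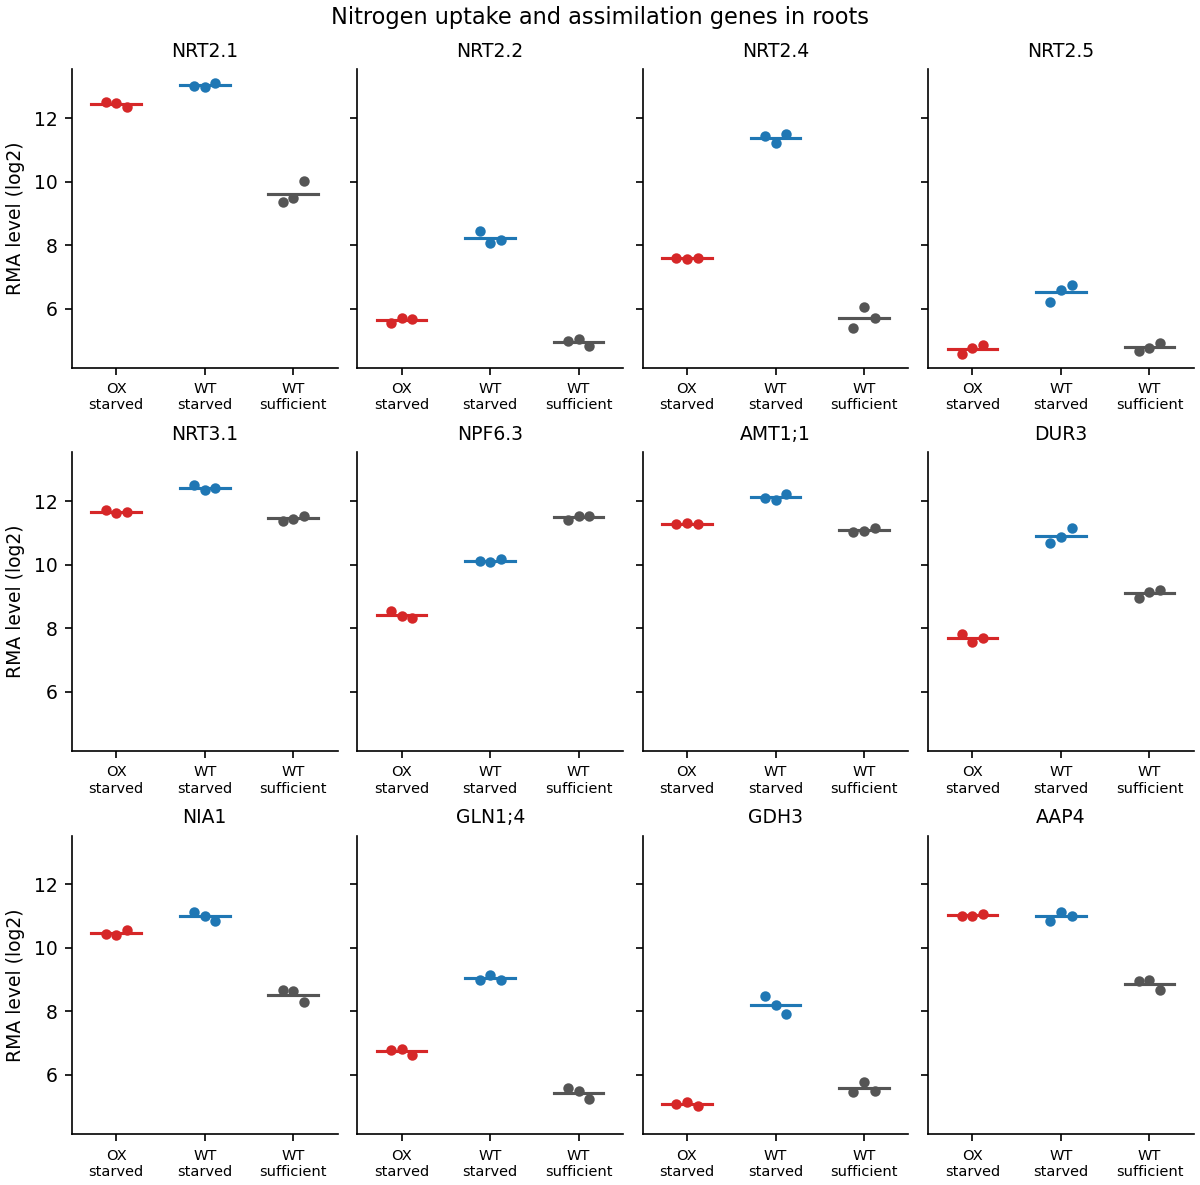
RMA log2 levels of 12 nitrogen uptake and assimilation genes in roots, with 1 point per array (n = 3) and a line at each group's mean, from left to right starved overexpressor (OX), starved wild type and sufficient wild type. NRT2.1, NIA1 and AAP4 stay near starved wild type in the overexpressor, NRT2.5 and AMT1;1 lie near sufficient wild type, and DUR3 and GDH3 lie below it.

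Carriers of reduced nitrogen also divided. AMT1;1, a high-affinity ammonium transporter, was 11.29, 11.30 and 11.28 in starved overexpressor, 12.09, 12.05 and 12.23 in starved wild type and 11.03, 11.05 and 11.16 in sufficient wild type. Its interval above the sufficient level, 0.10 to 0.32, lay within the margin although the groups did not overlap. DUR3 (AT5G45380), the high-affinity urea transporter, was 7.81, 7.58 and 7.69 in starved overexpressor, 10.68, 10.87 and 11.16 in starved wild type and 8.96, 9.15 and 9.22 in sufficient wild type. Starvation raised DUR3 by 1.80, and the overexpressor fell below the sufficient level by 1.42. Amino acid permeases, in contrast, kept their response: AAP4 was 11.01, 10.99 and 11.08 in starved overexpressor, 10.84, 11.13 and 11.00 in starved wild type and 8.97, 8.99 and 8.67 in sufficient wild type, and the starved groups differed by 0.04 ± 0.09 (95% interval -0.16 to 0.23). AAP6 and the broad amino acid transporter LHT1 were 1.86 ± 0.14 and 1.22 ± 0.07 above the sufficient level, against 1.62 and 1.1 in starved wild type. AAP1 stood 1.39 ± 0.09 above it, higher than in starved wild type by 0.78 (adjusted p = 3.57e-07). Of 13 tested genes for ammonium, urea and amino acid uptake, 10 were higher in starved overexpressor than in sufficient wild type and 1, DUR3, was lower (41.0 and 23.9% of all probe sets). Starved wild type had 11 higher and 0 lower (33.1 and 21.8% of all probe sets).

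Nitrate and nitrite reductase transcripts were higher in both starved groups than in sufficient wild type. NIA1, a nitrate reductase, was 10.44, 10.41 and 10.57 in starved overexpressor, 11.13, 11.01 and 10.84 in starved wild type and 8.66, 8.64 and 8.29 in sufficient wild type. NIA2, the second nitrate reductase, stood 1.08 ± 0.05 above the sufficient level in the overexpressor and 0.91 ± 0.05 in starved wild type. NIR1, the nitrite reductase, stood 0.61 ± 0.06 above it in the overexpressor and 0.83 ± 0.06 in starved wild type. RFNR2, a root ferredoxin-NADP reductase that supplies reductant, was 11.19, 11.04 and 11.06 in starved overexpressor, 12.15, 12.03 and 12.05 in starved wild type and 11.13, 11.15 and 11.24 in sufficient wild type. G6PD3, a plastid glucose-6-phosphate dehydrogenase, was part way at 0.58 ± 0.08, against 1.38 in starved wild type. UPM1, which makes the siroheme precursor of nitrite reductase, differed from the sufficient level by 0.01 ± 0.06 (95% interval -0.12 to 0.13), and starvation had raised it by 0.73. Of 17 tested genes for reduction and reductant, 9 were higher and 3 lower in starved overexpressor than in sufficient wild type (41.0 and 23.9% of all probe sets), against 13 and 2 in starved wild type (33.1 and 21.8% of all probe sets). The direct test called 12 of the 17 lower in the overexpressor than in starved wild type and 1 higher (16.7 and 21.4% of all probe sets).

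Among the genes of glutamine, glutamate and asparagine metabolism, the 2 with the largest starvation increases lost most or all of it. GLN1;4, a cytosolic glutamine synthetase, was 6.80, 6.82 and 6.62 in starved overexpressor, 8.99, 9.16 and 8.98 in starved wild type and 5.59, 5.51 and 5.23 in sufficient wild type. GDH3, a glutamate dehydrogenase subunit, was 5.08, 5.15 and 5.03 in starved overexpressor, 8.50, 8.21 and 7.91 in starved wild type and 5.45, 5.79 and 5.51 in sufficient wild type. GLN1;4 kept 36.2% of its starvation change and GDH3 stood -0.50 from the sufficient level, near the lower end of the scale. GLN1;1 shows the other pattern, 0.89 ± 0.04 above the sufficient level in the overexpressor and 0.93 ± 0.04 in starved wild type. ASN1, an asparagine synthetase that is high when nitrogen is plentiful and carbon is short, was low at 5.76 in overexpressor and 4.94 in starved wild type, against 8.26 in sufficient wild type. GLT1, the NADH-dependent glutamate synthase, was 10.69 in overexpressor, 11.08 in starved wild type and 11.75 in sufficient wild type. In this list 4 of 14 tested members were higher and 8 lower in starved overexpressor than in sufficient wild type (41.0 and 23.9% of all probe sets), against 7 and 5 in starved wild type (33.1 and 21.8%).

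Genes held at the sufficient level included a group that is known for induction by sulfur starvation. LSU2 (AT5G24660), of the RESPONSE TO LOW SULFUR family, was 6.62, 6.45 and 6.44 in starved overexpressor, 8.51, 8.28 and 8.54 in starved wild type and 6.83, 6.56 and 6.43 in sufficient wild type. APR1, an adenylylsulfate reductase of sulfate assimilation, was 8.96, 8.99 and 8.99 in starved overexpressor, 10.49, 10.53 and 10.43 in starved wild type and 9.08, 9.01 and 8.64 in sufficient wild type. In both genes the overexpressor overlapped sufficient wild type and lay below all arrays of starved wild type. LSU1 and SDI1, another sulfur-deficiency gene, were also at the level, -0.12 ± 0.14 and 0.21 ± 0.12 from it, against 1.13 and 1.4 in starved wild type. These 4 were the members of the sulfur list at the level. Over its 15 tested members, 2 were higher and 9 lower in starved overexpressor than in sufficient wild type (41.0 and 23.9% of all probe sets), against 8 and 2 in starved wild type (33.1 and 21.8%). The direct test called 12 lower and 1 higher in overexpressor than in starved wild type (16.7 and 21.4% of all probe sets). The exception was SULTR1;2, the main sulfate uptake transporter, at 11.13 in overexpressor, 10.42 in starved wild type and 11.85 in sufficient wild type.

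Other transcripts at the sufficient level had various functions. TAR2, a tryptophan aminotransferase of auxin synthesis, was 6.0, 6.01 and 6.11 in starved overexpressor, 7.53, 7.47 and 7.55 in starved wild type and 6.18, 6.11 and 6.06 in sufficient wild type. AT5G42830, listed as a benzoyltransferase-like protein, was 7.13, 7.03 and 7.03 in starved overexpressor, 9.04, 9.05 and 9.10 in starved wild type and 7.26, 7.18 and 7.27 in sufficient wild type. UGT76D1, a glycosyltransferase, differed from the sufficient level by 0.28 ± 0.08, and its groups did not overlap although the interval lay within the margin. AT3G32040, listed as a geranylgeranyl pyrophosphate synthase, and scpl31, a serine carboxypeptidase-like protein, differed from it by 0.28 ± 0.10 and 0.19 ± 0.14, against 1.69 and 1.57 in starved wild type. The remaining members of the class include MGD3 of galactolipid synthesis, LOG5 of cytokinin activation, SPS1F of sucrose synthesis, MKK9, a MAP kinase kinase, and LHY of the circadian clock, which were chosen after their values were seen. Their differences from the sufficient level lay between -0.04 for SPS1F and 0.28 for MGD3. The median starvation change of the 33 was 1.14, and none of them had a starvation change of 2 or more.

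Transcripts past the sufficient level had risen in starved wild type and were lower in starved overexpressor than with nitrogen. UMAMIT17, of a family of amino acid exporters, was 5.04, 5.54 and 5.24 in starved overexpressor, 9.62, 9.94 and 9.74 in starved wild type and 8.28, 8.77 and 8.61 in sufficient wild type. That is -3.28 ± 0.12 from the sufficient level on the fitted scale, where starvation alone had raised it by 1.21, and the overexpressor levels lay near 5, so the size of the decrease is uncertain. AT2G17710, without a symbol in the reference table, was 8.58, 8.74 and 8.47 in starved overexpressor, 10.89, 10.96 and 11.06 in starved wild type and 9.85, 9.73 and 9.87 in sufficient wild type. ChiC, a chitinase, was 8.16, 8.28 and 8.32 in starved overexpressor, 10.42, 10.26 and 10.69 in starved wild type and 9.48, 9.38 and 9.45 in sufficient wild type. In these genes, as in DUR3, the 3 groups were fully separated, with the overexpressor at the bottom and starved wild type at the top. That order defines the class, and these genes were picked from those whose overexpressor and sufficient arrays did not overlap. The transcription factor gene bZIP5 and AT1G49450 differed from the sufficient level by -0.99 and -1.04. ARR3, a type-A cytokinin response regulator, differed from it by -0.52.

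The transcripts that still responded included the largest starvation inductions. AT4G32950, listed as a putative phosphoprotein phosphatase, was 10.78, 10.81 and 10.73 in starved overexpressor, 12.17, 11.77 and 12.15 in starved wild type and 5.74, 6.29 and 6.58 in sufficient wild type. It was 4.57 ± 0.14 above the sufficient level, 23.8-fold, and differed by -1.26 from starved wild type (adjusted p = 3.60e-07). AT5G66815, listed as an expressed protein without a symbol, was 8.62, 8.83 and 9.02 in starved overexpressor, 8.64, 8.44 and 8.27 in starved wild type and 5.17, 4.90 and 4.64 in sufficient wild type. Here the overexpressor was slightly above starved wild type, by 0.37 ± 0.12 (adjusted p = 0.0212), though one of its arrays lay within the starved wild-type range. AT1G06830, listed as a glutaredoxin, stood 2.12 ± 0.16 above the sufficient level and 2.15 ± 0.16 in starved wild type. CEPR1, a receptor of CEP signalling peptides, changed by less than 1 and so was not in this class. It stood 0.55 ± 0.06 above the sufficient level in the overexpressor and 0.57 ± 0.06 in starved wild type. All 7 tested members of the list of CEP signalling and glutaredoxin genes were higher in starved overexpressor than in sufficient wild type (41.0% of all probe sets). Starved wild type had 6 higher and 1 lower (33.1 and 21.8% of all probe sets).

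Some induced transcripts went beyond starved wild type. SWEET14, a sugar transporter, was 9.35, 9.22 and 9.59 in starved overexpressor, 8.07, 8.29 and 7.43 in starved wild type and 5.31, 5.15 and 5.25 in sufficient wild type. TH8, a thioredoxin, was 9.17, 9.18 and 9.76 in starved overexpressor, 8.31, 7.3 and 7.49 in starved wild type and 5.62, 4.78 and 5.16 in sufficient wild type. The overexpressor exceeded all starved wild-type arrays in both, by 1.46 ± 0.14 and 1.67 ± 0.21. SWEET13 and the homeobox gene BLH4 were matched between the starved groups, with overexpressor minus starved wild type of 0.13 ± 0.12 (95% interval -0.11 to 0.38) and -0.15 ± 0.09 (95% interval -0.34 to 0.05). Of the 241 probe sets that still responded, the direct test called 88 higher and 53 lower in the overexpressor than in starved wild type. The other 100 were not called, and of all probe sets the test called 21.4% higher and 16.7% lower. This class requires at least 1 in the overexpressor and so leaves out induced probe sets that were low there. The split was therefore partly set by the choice.

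Suberin genes, which build the hydrophobic barrier of the endodermis, were higher in both starved groups than in sufficient wild type. FAR4, a fatty acyl reductase for suberin alcohols, was 11.19, 11.06 and 11.02 in starved overexpressor, 10.41, 10.49 and 10.60 in starved wild type and 8.50, 8.54 and 8.73 in sufficient wild type. GPAT5, an acyltransferase of suberin synthesis, was 9.33, 9.18 and 9.22 in starved overexpressor, 8.68, 8.72 and 9.03 in starved wild type and 7.34, 7.66 and 7.66 in sufficient wild type. ABCG6, a transporter required for suberin, stood 1.53 ± 0.08 above the sufficient level in the overexpressor and 0.95 ± 0.08 in starved wild type. All 9 tested members were higher than in sufficient wild type in both starved groups (41.0 and 33.1% of all probe sets in overexpressor and wild type). Medians were 1.53 in the overexpressor and 1.1 in wild type. The direct test called 6 of 9 higher and 0 lower in the overexpressor than in starved wild type (21.4 and 16.7% of all probe sets). The summed level of 9 root hair genes was 12.05 to 12.10 in starved overexpressor, 11.85 to 12.11 in starved wild type and 10.96 to 11.33 in sufficient wild type. In whole roots, more cells of a type and more RNA per cell cannot be told apart. Of those 9 root hair genes, 8 were higher in starved overexpressor and 9 in starved wild type (41.0 and 33.1% of all probe sets). PRP3, a root hair cell wall protein, stood 1.4 ± 0.12 above the sufficient level and 1.42 ± 0.12 in starved wild type.

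Genes that nitrogen keeps high were low in both starved groups. BT2 (AT3G48360), a BTB and TAZ domain protein that is induced by nitrate, was 5.03, 4.73 and 4.73 in starved overexpressor, 5.22, 5.11 and 5.18 in starved wild type and 9.99, 10.24 and 10.33 in sufficient wild type. LBD38 and LBD39 encode transcription factors that repress nitrogen uptake and assimilation genes. LBD38 was 7.43, 7.39 and 7.31 in starved overexpressor, 8.67, 8.34 and 8.56 in starved wild type and 10.76, 10.70 and 10.72 in sufficient wild type. LBD39 was 5.88, 5.72 and 5.79 in starved overexpressor, 6.38, 6.57 and 6.32 in starved wild type and 9.27, 9.48 and 9.38 in sufficient wild type. In all 3 genes each starved group lay wholly below sufficient wild type, and overexpressor minus starved wild type was -0.34, -1.15 and -0.63 (limma, adjusted p = 0.0273, 1.57e-11 and 1.23e-06). GAT1_2.1, a glutamine amidotransferase-like gene, was 5.43, 5.57 and 5.74 in starved overexpressor, 5.39, 5.31 and 5.51 in starved wild type and 9.62, 9.45 and 9.68 in sufficient wild type, with no call between the starved groups (adjusted p = 0.283).

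Several of the largest decreases had no symbol in the reference table. AT4G39675 was 5.69, 5.04 and 5.07 in starved overexpressor, 5.61, 6.26 and 6.35 in starved wild type and 11.37, 11.33 and 11.04 in sufficient wild type. AT1G49500 and AT5G19120 stood -5.40 and -5.29 from the sufficient level, against -4.49 and -3.89 in starved wild type. AT1G80440, AT2G16005 and AGT, an alanine-glyoxylate aminotransferase of photorespiration, stood -4.13, -4.17 and -4.30 from it. Several of these levels lay near 5 in the starved groups, so the lower end of the scale may limit their differences. Repressed transcripts at the sufficient level were rare. PDF2.1, a defensin-like gene, was 10.24, 9.88 and 10.02 in starved overexpressor, 8.45, 8.73 and 8.52 in starved wild type and 9.69, 9.71 and 10.14 in sufficient wild type. The other probe set at the level stands for 2 glutathione S-transferase genes. The 2 past the level were NIGT1.2 itself and a probe set for 2 GH3 genes of auxin conjugation, and the undecided one was SWEET11, a sucrose transporter. These last 4 were named after their values were seen.

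TGA1 (AT5G65210), a bZIP transcription factor of the root nitrate response, was far lower in the overexpressor than in either wild-type group. It was 5.09, 5.35 and 5.53 in starved overexpressor, 10.44, 10.44 and 10.53 in starved wild type and 11.14, 11.02 and 11.39 in sufficient wild type. The difference from the sufficient level was -5.86 in the overexpressor, whose levels lay near 5 and leave the size of the decrease uncertain, and -0.72 in starved wild type (limma, adjusted p = 1.75e-21 and 8.24e-07). TGA4, its closest relative, differed from the sufficient level by -0.25 ± 0.10 in the overexpressor (adjusted p = 0.0271). NLP3, a NIN-like transcription factor, was 7.24, 7.23 and 7.14 in starved overexpressor, 9.02, 8.77 and 8.96 in starved wild type and 5.58, 5.98 and 5.65 in sufficient wild type, at 46.2% of the starvation change. NLP7, the main nitrate-sensing member, stood 0.56 ± 0.06 above the sufficient level in the overexpressor and 0.93 ± 0.06 in starved wild type. CIPK23, a kinase that phosphorylates NPF6.3, was 9.13 in overexpressor, 9.47 in starved wild type and 10.13 in sufficient wild type. Among 22 tested nitrogen regulators, 10 were higher and 11 lower in starved overexpressor than in sufficient wild type (41.0 and 23.9% of all probe sets). Starved wild type had 8 higher and 7 lower (33.1 and 21.8% of all probe sets). The direct test called 14 lower and 1 higher in overexpressor than in starved wild type (16.7 and 21.4% of all probe sets).

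**Figure D3:**
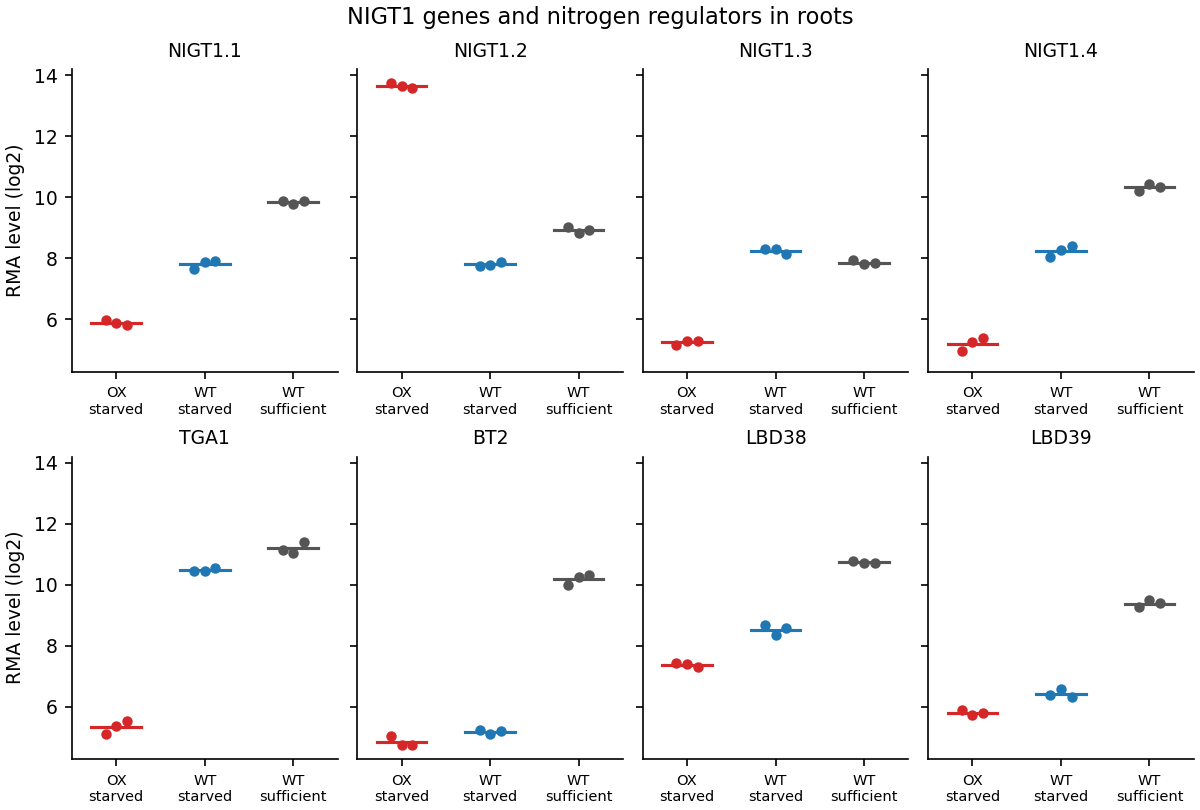
RMA log2 levels of 4 NIGT1 genes and 4 nitrogen regulators in roots, with 1 point per array (n = 3) and a line at each group's mean, from left to right starved overexpressor (OX), starved wild type and sufficient wild type. NIGT1.2 is near 13.7 in the overexpressor, TGA1 is lower in the overexpressor than in both wild-type groups, and BT2, LBD38 and LBD39 are low in both starved groups.

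Photosynthesis genes, which are weakly expressed in roots compared with shoots, had the lowest median of the 16 lists in the overexpressor. LHCB3, a light-harvesting protein of photosystem II, was 5.47, 5.47 and 5.42 in starved overexpressor, 8.22, 8.26 and 8.29 in starved wild type and 9.66, 9.71 and 9.71 in sufficient wild type. GAPA, a chloroplast glyceraldehyde-3-phosphate dehydrogenase, was 5.25, 5.52 and 5.26 in starved overexpressor, 8.26, 8.39 and 8.19 in starved wild type and 9.75, 9.86 and 9.78 in sufficient wild type. In both genes the overexpressor lay below all arrays of starved wild type. All 27 tested members were lower than in sufficient wild type in both starved groups (23.9 and 21.8% of all probe sets in overexpressor and wild type). Medians were -2.68 in the overexpressor and -1.26 in wild type. The direct test called 26 of 27 lower in the overexpressor than in starved wild type (16.7% of all probe sets). The smallest decrease in the overexpressor was that of the regulator GLK2, at -0.36 ± 0.08, against -0.37 in starved wild type. The summed level of the list was 11.24 to 11.34 in starved overexpressor, 12.75 to 12.84 in starved wild type and 14.02 to 14.03 in sufficient wild type. A smaller amount of green tissue in the root samples and less transcript per cell cannot be told apart.

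Of 11 tested iron acquisition genes, 2 were higher and 8 lower in the overexpressor than in sufficient wild type (41.0 and 23.9% of all probe sets), against 1 and 8 in starved wild type (33.1 and 21.8%). IRT1, the main root iron transporter, was 4.74, 4.41 and 4.94 in starved overexpressor, 5.20, 5.17 and 5.29 in starved wild type and 8.09, 7.80 and 8.15 in sufficient wild type. NAS1 and NAS2, nicotianamine synthases that make a metal chelator, were lower in the overexpressor than in both wild-type groups. NAS2 was 8.33, 8.34 and 8.71 in starved overexpressor, 10.79, 10.56 and 10.53 in starved wild type and 10.89, 10.80 and 10.89 in sufficient wild type. NAS1 was 5.98, 5.63 and 5.35 in starved overexpressor, 9.87, 9.82 and 10.08 in starved wild type and 10.24, 10.37 and 10.35 in sufficient wild type. NAS4, by contrast, was low in both starved groups, at 5.28, 6.01 and 5.89 in overexpressor and 6.36, 5.97 and 6.10 in starved wild type, against 9.0, 9.02 and 8.97 in sufficient wild type.

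Cytokinin genes showed more decreases in the overexpressor than in starved wild type. CYP735A2, the hydroxylase that makes trans-zeatin forms of cytokinin, was 5.35, 5.12 and 5.51 in starved overexpressor, 7.16, 7.39 and 7.47 in starved wild type and 8.92, 9.03 and 8.97 in sufficient wild type. IPT3, a nitrate-responsive cytokinin synthesis gene, was 5.01, 5.28 and 5.22 in starved overexpressor, 6.29, 6.23 and 6.02 in starved wild type and 7.49, 7.37 and 6.98 in sufficient wild type. Both had fallen with starvation and were lower again in the overexpressor, with differences of -2.01 and -1.01 from starved wild type (limma, adjusted p = 7.24e-13 and 4.78e-07). LOG7, a cytokinin-activating enzyme, stood -1.51 from the sufficient level in the overexpressor and 0.54 from it in starved wild type. The type-A response regulators ARR5, ARR7 and ARR8, whose levels follow cytokinin, stood -1.07, -0.97 and -1.58 from the sufficient level. Over 21 tested members, 3 were higher and 16 lower in the overexpressor than in sufficient wild type (41.0 and 23.9% of all probe sets), against 6 and 10 in starved wild type (33.1 and 21.8%). The direct test called 14 lower and 3 higher in the overexpressor than in starved wild type (16.7 and 21.4% of all probe sets).

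Most of the phosphate starvation genes tested were lower in the overexpressor, while starved wild type had changes in both directions. SPX1, a phosphate sensor protein, was 5.92, 5.40 and 6.01 in starved overexpressor, 7.22, 7.47 and 7.58 in starved wild type and 7.19, 7.08 and 7.3 in sufficient wild type. G3PP1, a glycerol-3-phosphate permease, was 5.99, 5.91 and 6.29 in starved overexpressor, 8.47, 8.44 and 8.63 in starved wild type and 8.43, 8.15 and 8.00 in sufficient wild type. In both genes starved and sufficient wild type lay close together and the overexpressor lay below all 6 of their arrays. SQD2, of sulfolipid synthesis, was 7.23 in overexpressor, 9.33 in starved wild type and 8.47 in sufficient wild type. PHO1, which exports phosphate to the xylem, was 9.29 in overexpressor, 10.25 in starved wild type and 10.80 in sufficient wild type. RNS1, a secreted ribonuclease, went the other way and stood 1.26 ± 0.09 above the sufficient level, against 3.06 in starved wild type. Over 22 tested members, 5 were higher and 15 lower in the overexpressor than in sufficient wild type (41.0 and 23.9% of all probe sets), against 9 and 7 in starved wild type (33.1 and 21.8%). Medians were -0.59 in the overexpressor and -0.06 in starved wild type. The direct test called 15 lower and 2 higher in the overexpressor than in starved wild type (16.7 and 21.4% of all probe sets).

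**Figure D4:**
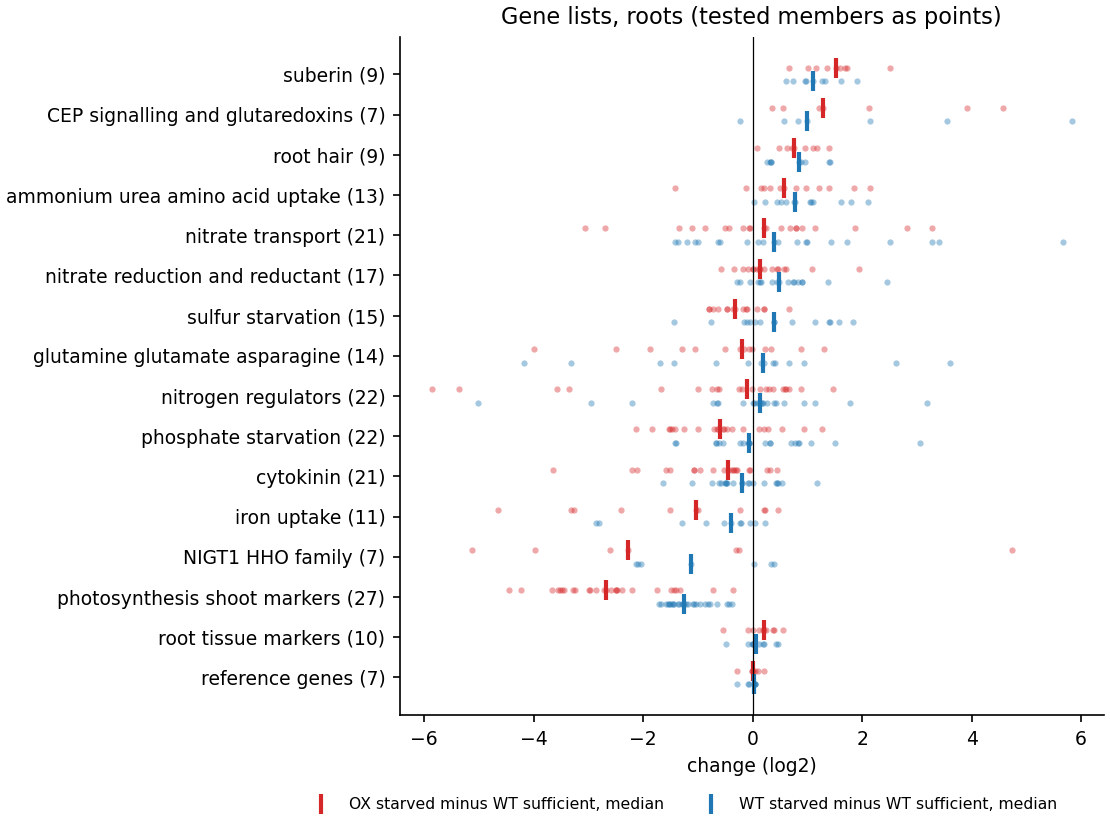
Differences from sufficient wild type (log2) for the tested members of 16 gene lists, with starved overexpressor in red above starved wild type in blue; points are genes, vertical marks are medians and the number of tested members is in parentheses. Suberin genes lie highest in the overexpressor (median 1.53) and photosynthesis genes lowest (median -2.68), and reference genes lie near 0.

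The 1311 probe sets (8.23% of those tested) that differed by at least 1 between starved overexpressor and sufficient wild type were divided by what starvation did in wild type. Of the 550 higher ones, 241 had changed by at least 1 in the same direction in starved wild type and 271 had changed in the same direction by less. In 236 of those 271 the overexpressor was higher than starved wild type by the direct test. Their choice (at least 1 in the overexpressor, under 1 in starved wild type) fixed that direction in advance. The same holds for the matching lower ones. Of the 761 lower ones, 383 had changed by at least 1 in the same direction, 282 by less (248 of them lower than starved wild type by the direct test), and 24 were called in the opposite direction. A further 32 higher and 59 lower probe sets lay away from the sufficient level in the overexpressor while the 95% interval of starved wild type lay between -0.5 and 0.5.

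These changes, for which starved wild type lay within the margin of the sufficient level, had varied functions. CBP60G, a calmodulin-binding transcription factor of salicylic acid synthesis and defence, was 8.38, 8.46 and 8.30 in starved overexpressor, 5.34, 5.19 and 5.24 in starved wild type and 5.06, 5.44 and 5.13 in sufficient wild type. It stood 3.18 above the sufficient level on the fitted scale, and both wild-type groups lay near 5, so the size of the difference is uncertain. HAK5, a high-affinity potassium transporter, was 7.43, 7.43 and 7.11 in starved overexpressor, 5.99, 6.05 and 6.52 in starved wild type and 6.13, 5.96 and 5.81 in sufficient wild type. CYP94B3, which oxidizes jasmonoyl-isoleucine, stood 1.37 ± 0.11 above the sufficient level, and the cytochrome P450 CYP72A14, the receptor kinase AT5G37450 and the glutathione transferase GSTU12 stood 1.46, 1.41 and 1.39 above it. Among lower transcripts, AT5G37990 was 7.96, 7.57 and 7.60 in starved overexpressor, 11.03, 11.14 and 11.62 in starved wild type and 10.96, 11.04 and 11.14 in sufficient wild type, 10.1-fold below the sufficient level. GSTF14, a glutathione transferase, the dioxygenase-like AT1G14120, the acyltransferase-like AT5G47980 and AT2G28780 stood -2.98, -2.96, -2.78 and -2.56 from it. In each of these named genes the 3 overexpressor arrays lay on one side of all 6 wild-type arrays. These genes were picked from those whose overexpressor and sufficient arrays did not overlap, so the separation was largely set by the choice.

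Induction of the AtNIGT1.2-VP fusion was measured on 6 other arrays, which entered the shared fit and its filter on mean level but not the differences that sort the transcripts. Estradiol raised 15.6% and lowered 28.3% of all probe sets in these roots at an adjusted p under 0.05, and raised 2.73% by at least 1. Of the 33 induced probe sets at the sufficient level in the overexpressor, it raised 48.5% and lowered 15.2%, and of the 17 past the level it raised 64.7% and lowered 23.5%. It raised 9 of the 33 and 7 of the 17 by at least 1. Of the induced probe sets that were part way it raised 45% and lowered 25.2%, and of those that still responded 39% and 26.1%. Repressed probe sets that still responded were raised in 14.9% and lowered in 54.0% of cases. With the classes taken from the 9 arrays of the 3 other groups alone and estradiol from a separate fit of the 6, a setting chosen after seeing the data, estradiol raised 17 and lowered 5 of 34 at the level and raised 11 and lowered 4 of 18 past it, against 16.8 and 32.2% of all probe sets. Differences between these classes were not tested, and the fusion was induced with nitrogen present, unlike the overexpressor.

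Individual genes spanned a wide range under estradiol. GDH3 was 12.87, 12.83 and 12.89 with estradiol and 5.66, 5.83 and 5.75 in mock-treated roots, a difference of 7.12 ± 0.11 (limma, adjusted p = 1.63e-21). NRT2.4 was 12.21, 12.36 and 12.29 with estradiol and 5.55, 5.41 and 5.75 in mock. NRT2.5 was 9.30, 9.45 and 9.38 with estradiol and 4.75, 4.61 and 4.62 in mock. In all 3 genes the estradiol arrays lay above every mock array, and each had been lower in starved overexpressor than in starved wild type. DUR3, GLN1;4 and NLP3 rose by 3.54, 5.11 and 3.43, and AMT1;1, TAR2 and APR1 by 1.48, 1.42 and 1.23. LSU2, LSU1 and SDI1, which were also at the sufficient level in the overexpressor, were not called (differences of 0.08, -0.06 and 0.05, adjusted p = 0.612, 0.774 and 0.794). NRT2.1 was 9.30, 9.32 and 9.48 with estradiol and 10.45, 9.96 and 9.86 in mock, a decrease of 0.72 (adjusted p = 1.01e-04), and NRT2.2 was not called at -0.09 ± 0.11. TGA1 fell by 0.23 (adjusted p = 0.0461). All 7 tested NIGT1 family genes were higher with estradiol (15.6% of all probe sets), among them NIGT1.2 itself, the gene in the fusion, by 4.12. NIGT1.3 rose by 3.48 and NIGT1.1 by 1.84. Of 22 tested phosphate starvation genes, 17 were higher and 1 lower (15.6 and 28.3% of all probe sets).

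**Figure D5:**
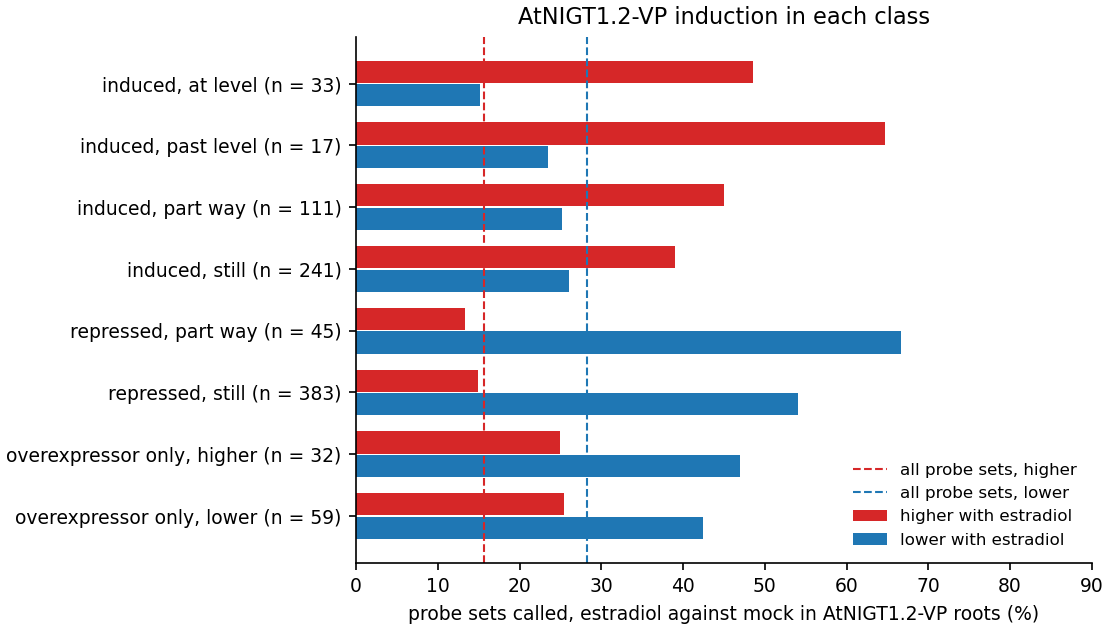
Share of probe sets (%) called higher (red) or lower (blue) with estradiol than in mock-treated AtNIGT1.2-VP roots, for the classes of starvation response and of overexpressor change, with dashed lines at the shares over all 15922 probe sets (15.6% higher and 28.3% lower). In the 4 induced classes the red bars pass the red line, and in the 2 repressed classes the blue bars pass the blue line. In both overexpressor-only classes the red and the blue bars pass their lines.

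The same comparison in shoots gave 36.8% of probe sets higher and 27.6% lower (6.58 and 6.98% by at least 1). Tables of the tissues were normalized separately, so values are set side by side and not tested against each other. Of the 17 induced root probe sets past the sufficient level, 11 were tested in shoots, where 10 were lower in starved overexpressor than in sufficient wild type and 0 higher. Of the 26 tested from the induced class at the level, 7 were higher and 8 lower, and of the 74 from the part-way class 32 were higher and 14 lower. Of the 39 tested from the repressed part-way class, 14 were higher and 15 lower. Of the 145 still-responding induced root probe sets tested in shoots, 92 were higher and 17 lower, and of the 350 still-responding repressed ones, 260 were lower and 32 higher. NRT2.5 in shoots was 4.22, 4.34 and 4.02 in starved overexpressor, 6.80, 5.89 and 5.96 in starved wild type and 4.58, 4.67 and 4.52 in sufficient wild type, -0.40 ± 0.19 from the sufficient level (adjusted p = 0.0829). TGA1 in shoots was 4.99, 5.19 and 5.56 in starved overexpressor, 8.02, 7.68 and 7.79 in starved wild type and 7.54, 7.48 and 7.49 in sufficient wild type, with a decrease of 2.26 in the overexpressor.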

How the data were processed

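The authors deposited log2 expression values of Affymetrix arrays, made with RMA per the file headers, in a table of 15 arrays per tissue. MAS5 stands in the submitters' processing notes instead. They were treated as RMA log2 values here, and the array's annotation build and tool versions are not given in the sources used here. Deposited p-values and q-values, from tests by the authors, were left aside. Precision is limited by 3 arrays per group.

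Of 22746 probe sets, 21452 had 1 gene in the deposited locus column, 1110 several and 184 none. Symbols came from a RefSeq table of assembly TAIR10.1, which matched 21278 probe sets and 21053 genes. Genes on the lists carry their usual names, the NIGT1 numbers follow the naming of the study's authors, and loci unnamed in the tables keep their locus. Where several single-gene probe sets matched, the one of highest mean stood for the gene.

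The 15922 probe sets whose root mean reached the 30th percentile (5.33) entered the tests. Limma 3.58.1 in R 4.3.3 was fitted with a mean per group over all 15 root arrays and an intensity trend. Tests were two-sided, with Benjamini-Hochberg adjustment over all probe sets tested and a threshold of 0.05. The 3 root differences were starved overexpressor minus sufficient wild type, starved wild type minus sufficient wild type, and overexpressor minus starved wild type, which tests the difference between the first and the second. Estradiol minus mock in AtNIGT1.2-VP roots shares no array with them, but all 15 arrays set the filter and the estimate of the spread. Standard errors and intervals come from the fit. Names of genes chosen because of their class carry no p-value for the differences that set the class.

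Members, gene lists (16 lists) and settings were chosen with earlier results of these data known. Named genes were, per class, those with the largest changes whose groups did not overlap, genes of a set list, and up to 4 leading members of each gene list. Other genes of a list are named as members of it.

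On simulated data with 15922 probe sets and independent normal noise, changes of 0.5 were recovered in 82.6% of 23 cases for the overexpressor difference and 88% of 50 for starvation. Changes of 1 or more were recovered in 100%, and 5.88% of calls for the overexpressor difference were false. Only a small part of the simulated probe sets was changed, unlike in these data, so the rates may not carry over. Alternatives were other filters, a further quantile normalization, centring, no trend, fewer arrays in the fit, the replicate number as a block, other margins and sizes, each array left out, separate fits for the classes and for estradiol (chosen after seeing the data), and the series matrix, whose values equal the tables within 5.0e-09.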

Additional observations from a re-analysis of the deposited data

Results flagged for a closer look

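Among the genes of the set list tested in both tissues, 6 had a difference of starved overexpressor from sufficient wild type of opposite sign in roots and shoots. In these 6 every overexpressor array lay above all sufficient arrays in roots and below them all in shoots. They come from the set list alone and are not a count over all probe sets. The difference between tissues was not tested, since their tables were normalized separately. NIA1, NIA2 and NIR1, the nitrate and nitrite reductases, were 1.94, 1.08 and 0.61 in roots and -3.03, -1.36 and -2.88 in shoots. In NIA1, NIA2 and NIR1, starved wild type went the same ways, 2.46, 0.91 and 0.83 in roots and -2.43, -0.5 and -1.66 in shoots. AT4G32950, listed as a putative phosphoprotein phosphatase, was 4.57 in roots and -0.43 in shoots. GLN1;4 was 1.3 in roots and -1.24 in shoots, while starved wild type was higher than sufficient wild type in both, by 3.60 in roots and 3.79 in shoots. NRT2.4 was 1.87 in roots and -0.11 in shoots, where all wild-type and overexpressor arrays lay near 5 and the difference was not called (limma, adjusted p = 0.414).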

How the results depend on the processing

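No named gene's called difference changed sign. With arrays centred, higher calls were 44.9% of the starvation calls, against 60.3% as deposited, with medians of -0.025 and 0.057 over all probe sets. Of 740 counts under the alternatives, 683 stayed within 1.5 times their main count, among them the estradiol counts from separate fits of 9 and 6 arrays, a setting chosen after seeing the data. Some counts could not move, since the series matrix holds the same values and other margins and sizes reuse the main fit. The 683 therefore overstate how stable the counts are. Counts of classes depended most on how "at the level" and "responsive" were set. With a margin of 0.3, 6 induced probe sets were at the level and 23 undecided, 1 repressed one was at the level and 2 were undecided, and 8 higher and 20 lower changes had starved wild type within the margin. With a margin of 1, induced probe sets numbered 115 at the level, 9 past it, 42 part way and 1 undecided, repressed ones 33 at the level, 1 past it, 16 part way and 0 undecided, and changes with starved wild type within the margin 202 higher and 247 lower. With a starvation change of at least 2, induced ones numbered 0 at the level, 1 past it, 25 still responding, 27 part way and 1 undecided, repressed ones 0, 0, 78, 7 and 0, and overexpressor changes of at least 2 with starved wild type within it 2 higher and 8 lower. With a filter at the 50th percentile, 346 probe sets were higher by at least 1 in overexpressor than in sufficient wild type and 33 than in starved wild type, 17 induced ones were at the level and 2 undecided, 1 repressed one was past it, and 17 higher changes had starved wild type within the margin, and estradiol raised 10 and lowered 2 at the level, lowered 2 past it and raised 4 of the 17. Fewer probe sets were tested there. The further quantile normalization and centring each gave 5 repressed probe sets at the level and 0 undecided, and estradiol raised 23 and 26 of the lower changes with starved wild type within the margin. Undecided repressed probe sets numbered 2 without the intensity trend, 0 with 9 arrays in the fit and 0 with the replicate number as a block.

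Same-numbered arrays of 2 groups deviated together with correlations of -0.136 to 0.162, not all above 0.1, so the numbers were not taken as pairs; the replicate block changed no other count by over 1.5 times and no named gene's call.

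Leaving out each array in turn gave 5880 to 6390 higher and 3486 to 3727 lower calls in overexpressor against sufficient wild type (501 to 591 and 738 to 785 by at least 1), 2689 to 3414 and 2229 to 2633 against starved wild type (69 to 73 and 330 to 364), 4535 to 5283 and 3060 to 3386 for starvation (386 to 443 and 403 to 457), and 5412 to 5641 and 3997 to 4238 in shoots (997 to 1153 and 1081 to 1192). Induced probe sets at the level, past it, still responding, part way and undecided numbered 28 to 37, 15 to 20, 222 to 271, 105 to 121 and 4 to 10, and repressed ones 1 to 4, 2 to 3, 358 to 398, 38 to 52 and 0 to 3. Changes with starved wild type within the margin numbered 24 to 34 higher and 45 to 69 lower. Estradiol raised and lowered 15 to 21 and 4 to 7 at the level, 10 to 12 and 3 to 5 past it, 87 to 113 and 56 to 72 induced and still responding, 49 to 62 and 185 to 217 repressed and still responding, 6 to 9 and 12 to 17 of the higher and 14 to 18 and 20 to 30 of the lower ones of these changes. Of the 33 induced probe sets at the level, 25 to 33 remained so, and of the 17 past it 14 to 17. Undecided induced probe sets numbered 10 without sufficient wild-type replicate 1. The repressed undecided probe set became 3 without overexpressor replicate 2, and those at the level 4 without starved wild-type replicate 3.

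Among named genes, calls changed in 10 cases. AT3G32040 lost its call when arrays were centred or normalized again, without overexpressor replicate 2 (0.24) and without sufficient wild-type replicate 2 (0.20). PLT2 lost it without overexpressor replicate 1 (0.33). PDF2.1 gained one without sufficient wild-type replicate 3 (0.35, adjusted p = 0.00645), AT5G42830 (-0.24) when centred or normalized again, and RFNR2 (-0.15) when centred. NRT3.1 lost its call when centred (0.14). All listed alternatives were run, and the causes were not tested.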

Other observations

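Other transcripts with large increases in the starved overexpressor, chosen after their values were seen, were raised less by starvation in wild type. FMO1, a flavin-dependent monooxygenase of plant defence, was 8.61, 8.61 and 8.92 in starved overexpressor, 6.12, 6.08 and 6.33 in starved wild type and 4.70, 4.82 and 5.03 in sufficient wild type. The germin-like AT5G38910 was 8.35, 8.37 and 8.74 in starved overexpressor, 6.19, 5.48 and 5.80 in starved wild type and 5.03, 5.04 and 4.82 in sufficient wild type. The GDSL-motif lipase AT2G40250 was 8.70, 8.60 and 8.60 in starved overexpressor, 7.12, 7.07 and 6.91 in starved wild type and 5.03, 5.27 and 5.23 in sufficient wild type. In these 3 genes no group overlapped another, with the overexpressor at the top and sufficient wild type at the bottom. Overexpressor minus starved wild type was 2.54 ± 0.11, 2.66 ± 0.13 and 1.60 ± 0.09. Estradiol in AtNIGT1.2-VP roots gave differences of 1.74, -0.09 and 0.03 in the same genes (limma, adjusted p = 4.84e-11, 0.64 and 0.817). Among the decreases, GLYI4, of the glyoxalase family, was 5.88, 5.82 and 5.65 in starved overexpressor, 9.01, 8.59 and 8.72 in starved wild type and 10.59, 10.67 and 10.84 in sufficient wild type.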
